A study of Homo sapiens with 6 samples.

Results

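COPII is the protein coat that buds transport vesicles from the endoplasmic reticulum (ER), and the 10 genes described here encode it: the GTPases SAR1A and SAR1B, the inner coat subunits SEC23A, SEC23B, SEC24A, SEC24B, SEC24C and SEC24D, and the outer coat subunits SEC13 and SEC31A. The members were chosen by name. Each was represented by exactly 1 row of the array table that names it alone, so all 10 were measured, out of 22465 genes in all. PC3, an established line from a bone metastasis of human prostate cancer, received a Pre-miR miR-130a precursor (3 arrays) or a Pre-miR negative control (3 arrays) by transient transfection. The series describes the replicates as independent experiments, and neither the dose nor the time after transfection is given in the sources used here. Both arms thus went through transfection with a small RNA, and no untransfected cells were compared. Total RNA was hybridised to arrays that measure whole transcripts. The values are log2 expression after RMA, which corrects background, normalises probes between arrays and summarises the probes of a transcript, so that the medians of the summarised rows can still differ between arrays. A difference of 1 is therefore a change of 2-fold, and levels of different genes are not compared.

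A coat assembles when the ER membrane protein PREB loads SAR1 with GTP. SAR1 then recruits the SEC23 and SEC24 dimer, in which SEC24 holds the cargo and SEC23 stimulates GTP hydrolysis by SAR1, and the SEC13 and SEC31 cage bends the membrane into a vesicle. The paralogs are partly exchangeable, but for some of them inherited loss has its own human disease. Examples are SEC23B in congenital dyserythropoietic anaemia type II, SEC23A in cranio-lenticulo-sutural dysplasia, SAR1B in chylomicron retention disease and SEC24D in a brittle bone syndrome. MicroRNAs such as miR-130a guide Argonaute proteins to matching sites in messenger RNAs and lower their stability or translation.

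The RefSeq hairpin of MIR130A is shown because it is the natural source of miR-130a (chr11:57641198-57641286, plus strand, GRCh38.p14). The labels name no arm, and the letters of the supplied molecule are not given in the sources used here. Capitals mark the arm annotated as miR-130a-5p; the other arm is miR-130a-3p.

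MIR130A hairpin: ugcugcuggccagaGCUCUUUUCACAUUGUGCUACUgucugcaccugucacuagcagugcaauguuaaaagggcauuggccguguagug

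Marker rows were set against the label. Those of the epithelial genes KRT8, KRT18 and EPCAM and of vimentin (VIM), which PC3 cells express, lay between 7.89 (EPCAM) and 10.53 (VIM) on the 6 arrays. KRT18 rose with miR-130a (difference 0.39, adjusted p = 0.0180). KRT8 differed by 0.16 (adjusted p = 0.143) and VIM by -0.10 (adjusted p = 0.389), both without overlap of the arms, and EPCAM by -0.03 with overlap. The part of these markers in the results was not tested. The leukocyte gene PTPRC lay between 2.65 and 2.79, and KLK3, the prostate-specific antigen gene known to be low in this line, between 5.79 and 6.04. The fibroblast and endothelial markers COL1A1 and PECAM1 lay at 6.71 to 7.01 and at 6.16 to 6.46. These ranges span all 6 arrays, the last 3 of these genes lay above the median row (4.995), and 0 of them passed the test. Negative control 3 stood apart from the other arrays over all 67528 rows. Its correlation with negative controls 1 and 2 was 0.9923 and 0.9920, against 0.9958 between those arrays, and its median was 5.084 against 4.964 to 4.997 on the other 5. It was the lowest control for 8 of the 10 coat genes, so results are given with and without it where that matters.

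SEC23B and SAR1B fell with miR-130a, and 0 of the 10 coat genes rose. SEC23B was 1.38-fold lower and SAR1B 1.24-fold lower, and the other 8 did not pass the test across all genes (limma, Benjamini-Hochberg adjusted p below 0.05). Among all 22465 genes tested, 1.74% were called lower and 2.48% higher, 4.23% in all. At an unadjusted p below 0.05 there were 3 coat genes, all lower, where 16.5% of all genes passed in either direction and 8.34% were lower. SEC23B was known to have fallen when these genes were put together, so the share of 2 in 10 is a description. The median log2 difference of the 10 genes was -0.04, beside -0.01 over all genes. In 4 of the 10 genes (SEC23B, SAR1B, SEC23A and SEC24C) every miR-130a value lay below every control value. Such separation, in either direction, was seen in 23.6% of all genes. In these bulk cultures, a smaller share of cells with the transcript and less transcript per cell cannot be told apart. All 10 rows lay above 4.995, the median over all rows.

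**Figure D1:**
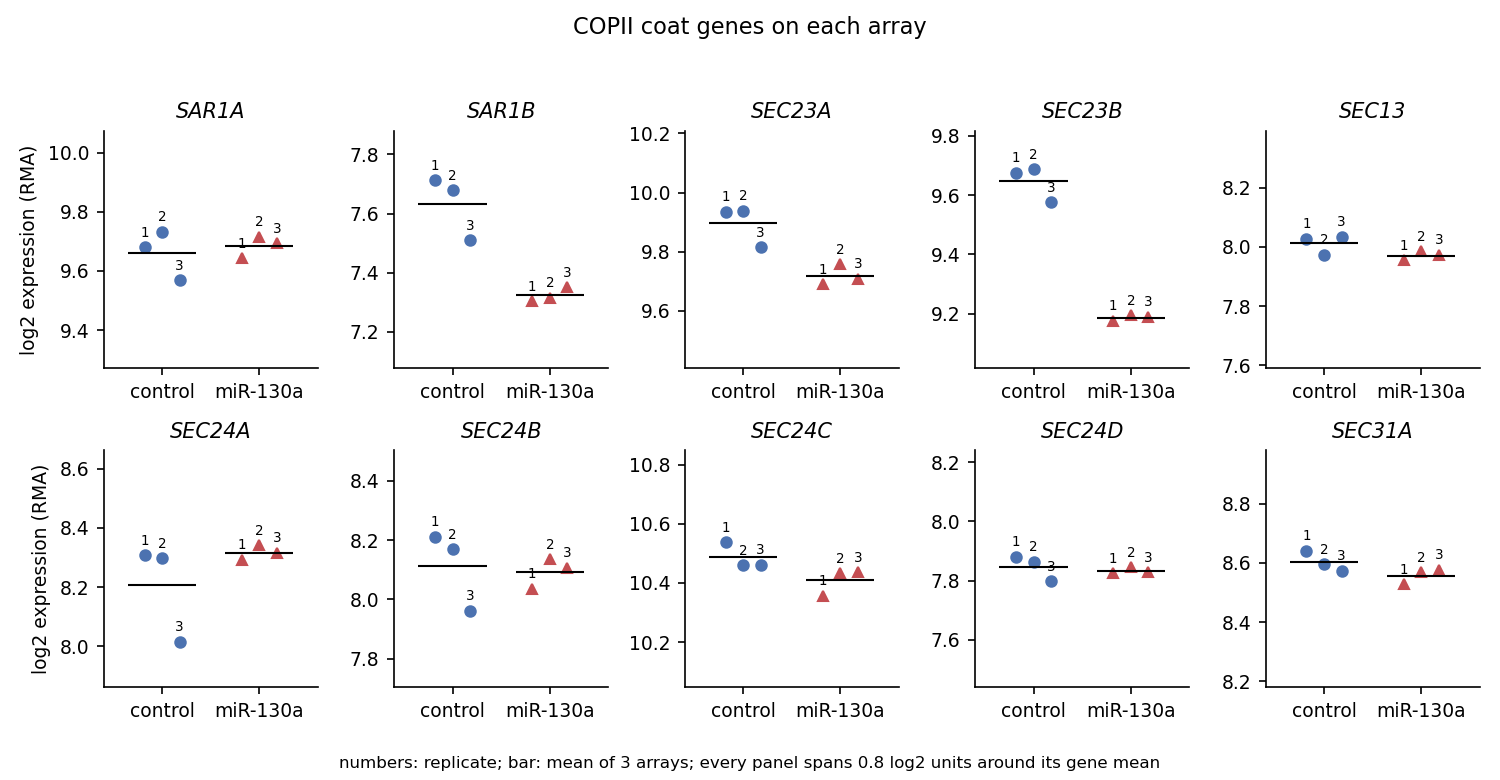
Log2 expression (RMA, vertical axis) of the 10 COPII coat genes on each of the 3 negative control arrays (circles) and 3 miR-130a arrays (triangles), with replicate numbers and a bar at the mean of each arm; every panel has the same span. SEC23B shows the widest gap between the arms, 0.38, and negative control 3 is the lowest control in 8 panels.

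SAR1A and SAR1B encode the GTPase that starts the coat. SAR1B, the form needed to export chylomicrons from intestinal cells, lay at 7.71, 7.68 and 7.51 on negative control arrays 1, 2 and 3 and at 7.30, 7.32 and 7.35 on miR-130a arrays 1, 2 and 3. All 3 treated values were below the lowest control, which was negative control 3, by 0.16. The arm means were 7.63 ± 0.11 and 7.32 ± 0.025 (SD of log2 values, n = 3 each), a difference of -0.31 (SE 0.06, 95% interval -0.46 to -0.16, limma adjusted p = 0.0419). The call depended on the arrays: without negative control 3 the difference was -0.37 (adjusted p = 0.00617), whereas it was lost on leaving out negative control 1 (adjusted p = 0.144) or 2 (0.101), or array 1 (0.185), 2 (0.163) or 3 (0.155) of the miR-130a arm, at differences of -0.32 to -0.27. Each of those fits used 5 arrays. The call was lost as well under 3 settings that kept all arrays, among them centring on array medians (adjusted p = 0.167) and testing all rows together (adjusted p = 0.169), and 5 of 13 alternatives kept it. Among these 5, the mean of a gene's rows could not move the difference, since SAR1B has 1 row. The filter on dim rows and the trend and robust options left the difference as it was by design.

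SAR1A lay at 9.68, 9.73 and 9.57 in controls and at 9.64, 9.72 and 9.69 with miR-130a. The arms overlapped, and the difference of 0.02 (95% interval -0.11 to 0.16, adjusted p = 0.945) had no stable sign, since it was -0.02 without negative control 3.

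SEC23A and SEC23B encode the subunit that stimulates SAR1's GTPase. SEC23B lay at 9.68, 9.69 and 9.58 on negative control arrays 1, 2 and 3 and at 9.18, 9.19 and 9.19 on miR-130a arrays 1, 2 and 3. The treated arrays were almost level with each other, within 0.02, and stood 0.38 below the lowest control, a gap wider than the range of the controls (0.11). The means were 9.65 ± 0.06 and 9.19 ± 0.01 (log2, SD, n = 3 per arm). The difference of -0.46 (SE 0.05, 95% interval -0.58 to -0.34, limma adjusted p = 0.00418) was a 1.38-fold fall, with an interval of 0.669 to 0.790 for the treated level relative to control. SEC23B had the 109th largest fall of the 22465 genes and was 150th by p. It passed under each of the 13 alternatives run, with differences of -0.49 to -0.44 and adjusted p of 0.000589 to 0.0364, and reached -0.49 without negative control 3.

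SEC23A lay at 9.94, 9.94 and 9.82 in controls and at 9.69, 9.76 and 9.71 with miR-130a. Every treated value was below every control, but the gap to negative control 3 was 0.06. At -0.18 (SE 0.06, 95% interval -0.31 to -0.05) the difference missed the threshold (adjusted p = 0.150). Without negative control 3 it was -0.22 and passed (adjusted p = 0.0254). The other 12 alternatives did not call it, with adjusted p up to 0.483.

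SEC24 selects cargo, and its 4 forms fall into the close pairs SEC24A with SEC24B and SEC24C with SEC24D. SEC24A lay at 8.31, 8.30 and 8.02 in controls and at 8.29, 8.34 and 8.32 with miR-130a. Negative control 3 alone was low, and the difference of 0.11 (95% interval -0.08 to 0.30, adjusted p = 0.649) shrank to 0.01 without it. SEC24B, needed for neural tube closure in mice, lay at 8.21, 8.17 and 7.96 in controls and at 8.04, 8.14 and 8.11 with miR-130a. The treated values lay inside the range of the controls, and the difference of -0.02 (95% interval -0.20 to 0.15) became -0.10 without negative control 3, again with no call (adjusted p = 0.227).

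SEC24C lay at 10.54, 10.46 and 10.46 in controls and at 10.36, 10.43 and 10.44 with miR-130a. The arms were separated by only 0.02, and the difference of -0.08 (95% interval -0.20 to 0.04) did not pass (adjusted p = 0.574). SEC24D, whose loss in people impairs bone collagen export, lay at 7.88, 7.86 and 7.80 in controls and at 7.82, 7.85 and 7.83 with miR-130a. The treated arrays lay inside the range of the controls, with a difference of -0.01 (95% interval -0.13 to 0.10, adjusted p = 0.962).

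The outer cage subunits showed overlapping arms. SEC13, which also belongs to the nuclear pore and to a nutrient-sensing complex upstream of mTORC1, lay at 8.03, 7.97 and 8.03 in controls and at 7.95, 7.98 and 7.97 with miR-130a (difference -0.04, 95% interval -0.15 to 0.07, adjusted p = 0.816). SEC31A, its partner in the cage, lay at 8.64, 8.60 and 8.57 in controls and at 8.53, 8.57 and 8.58 with miR-130a (difference -0.05, 95% interval -0.16 to 0.07, adjusted p = 0.781). For both, the lowest control lay below the highest treated value. Over the 7 members other than SEC23B, SAR1B and SEC23A, the unadjusted 95% intervals ran from -0.20 at the lowest to 0.30 at the highest, so none reached down to -0.34, the upper bound of the interval of SEC23B, which is no test of the difference. A missed threshold does not show that these transcripts were unchanged.

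**Figure D2:**
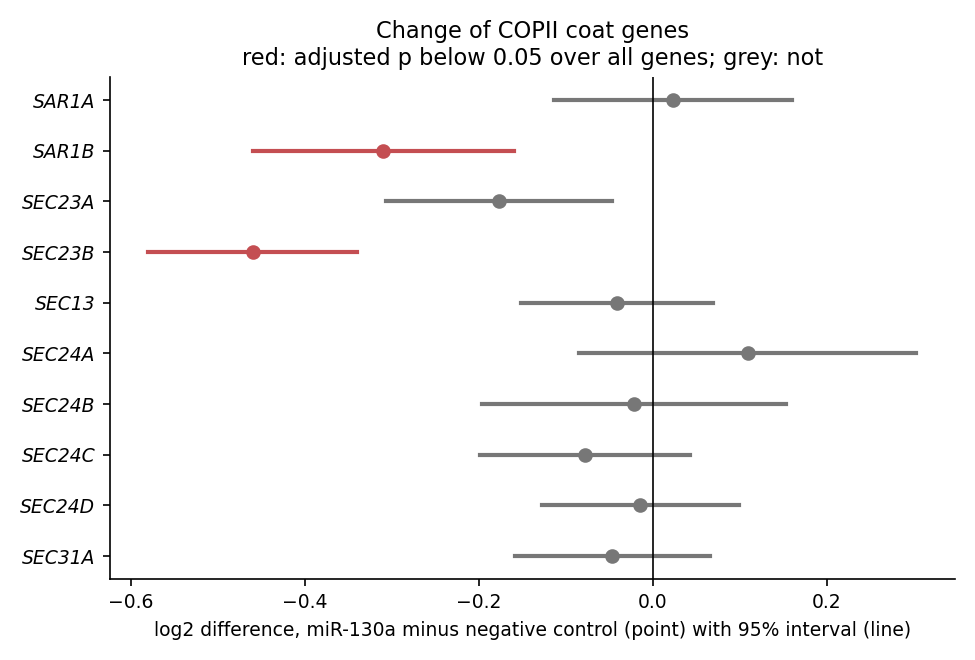
Log2 difference between miR-130a and negative control arrays (horizontal axis; point, limma estimate; line, 95% interval; 3 arrays per arm) for the 10 coat genes in the order SAR1, SEC23, SEC13, SEC24, SEC31. The intervals of SEC23B (-0.58 to -0.34), SAR1B (-0.46 to -0.16) and SEC23A (-0.31 to -0.05) lie below 0, and the first 2 passed the adjusted threshold.

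Because paralogs are measured on the same array, the log2 difference between their rows was followed from array to array in 4 pairs. A shift of this within-array difference between the arms describes how unequally the 2 rows changed. SEC23B minus SEC23A was -0.26, -0.25 and -0.24 in controls and -0.51, -0.56 and -0.52 with miR-130a. Negative control 3 lay beside the other controls on this measure, and the arms were far apart. The shift of SEC23B relative to SEC23A was -0.28 (-0.25 ± 0.01 against -0.53 ± 0.03, SD, n = 3 per arm; two-sided exact permutation p = 0.1, and 0.133 adjusted over the 4 pairs). SAR1B minus SAR1A was -1.97, -2.06 and -2.06 in controls and -2.34, -2.40 and -2.34 with miR-130a. The arms again did not overlap, and the shift was -0.33 (exact permutation p = 0.1, adjusted 0.133).

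SEC24B minus SEC24A was -0.10, -0.13 and -0.06 in controls and -0.26, -0.21 and -0.21 with miR-130a, a shift of -0.13 with no overlap (exact permutation p = 0.1, adjusted 0.133), although neither gene passed on its own. SEC24D minus SEC24C shifted by 0.06 with overlapping arms (exact permutation p = 0.2, adjusted 0.2). The fall of SEC23B was known when the pairs were chosen, so its shift is a description. With 3 arrays against 3 the smallest p that permutation allows is 0.1, so no pair could pass the threshold. The differences between pairs were not tested, and how often other gene pairs show no overlap was not examined. The shifts of the first 3 pairs kept their sign with any 1 array left out (-0.29 to -0.27 for SEC23, -0.35 to -0.30 for SAR1 and -0.15 to -0.11 for SEC24B against SEC24A). Close paralogs can share probe sequence. The probes were not examined here, so cross-hybridisation within a pair was not tested.

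**Figure D3:**
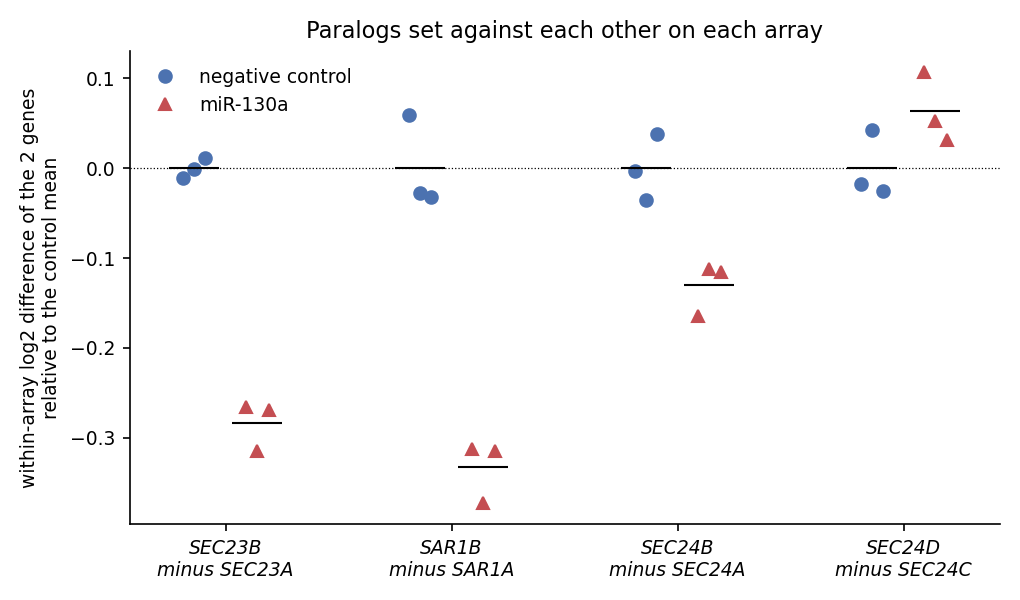
Within-array log2 difference between the 2 genes of each paralog pair, shown relative to the control mean (vertical axis, log2), for negative control arrays (circles) and miR-130a arrays (triangles), with bars at the mean of 3 arrays. The shift is -0.28 for SEC23B against SEC23A and -0.33 for SAR1B against SAR1A, and the arms of SEC24D minus SEC24C overlap.

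The genes whose profile over the 6 arrays was most like that of SEC23B were sought among 16088 genes above the median row, by the root mean square difference of values centred on each gene's own mean. The nearest were ADAM9, a membrane protease (0.0190), MAPRE1, a microtubule plus-end protein (0.0245), VAMP3, a SNARE of recycling vesicles (0.0254), PCNA, the replication clamp (0.0283), and HMGB3, a chromatin protein (0.0313). These 5 genes differed by -0.48 to -0.42 between the arms, and each passed the test. Both follow from how they were chosen, on the same 6 arrays, and are no further result. Likeness over these arrays rests mainly on the shared contrast and says nothing of shared control. Among the coat genes, SAR1B was the nearest to SEC23B at 0.0818, ranked 146th, followed by SEC23A at 0.143, ranked 787th, and SEC24A was the farthest at 0.291.

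Promoters of coat genes were searched for motifs of the ER stress response, which is known to raise COPII genes. CCAAT and the cyclic AMP response element, which are not particular to that response, were searched too. RefSeq windows of 250 bases before to 50 after a gene's start (GRCh38.p14) matched 9 of the 10 members, in 14 windows, some overlapping. SEC24D is not described. The motifs were CCAAT, the cyclic AMP response element TGACGTCA, the XBP1 core TGACGTGG, and the ER stress elements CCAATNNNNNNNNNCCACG and ATTGGNCCACG, on both strands. CCAAT can lie within the first stress element, and within the second on its other strand. The windows of SEC23B and SAR1B are shown as the genes that fell, and those of SEC23A and SEC24A because they hold the XBP1 core. Capitals mark motif matches, which in the SEC23B and SAR1B windows are CCAAT alone, on either strand.

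SEC23B, second annotated start (chr20:18507690-18507989, plus strand): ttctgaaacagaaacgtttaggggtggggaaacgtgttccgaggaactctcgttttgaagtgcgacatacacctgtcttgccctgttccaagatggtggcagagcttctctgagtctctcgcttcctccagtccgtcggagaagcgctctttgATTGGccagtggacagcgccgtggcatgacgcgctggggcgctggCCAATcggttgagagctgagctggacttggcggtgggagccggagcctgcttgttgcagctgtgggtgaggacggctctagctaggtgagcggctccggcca
SAR1B (chr5:134632779-134633078, minus strand): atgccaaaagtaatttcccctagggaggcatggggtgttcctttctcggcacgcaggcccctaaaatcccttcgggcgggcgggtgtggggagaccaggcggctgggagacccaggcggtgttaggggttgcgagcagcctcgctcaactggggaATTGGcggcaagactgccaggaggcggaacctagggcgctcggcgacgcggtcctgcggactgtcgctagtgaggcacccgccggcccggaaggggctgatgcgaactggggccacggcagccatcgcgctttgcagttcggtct
SEC23A (chr14:39103186-39103485, minus strand): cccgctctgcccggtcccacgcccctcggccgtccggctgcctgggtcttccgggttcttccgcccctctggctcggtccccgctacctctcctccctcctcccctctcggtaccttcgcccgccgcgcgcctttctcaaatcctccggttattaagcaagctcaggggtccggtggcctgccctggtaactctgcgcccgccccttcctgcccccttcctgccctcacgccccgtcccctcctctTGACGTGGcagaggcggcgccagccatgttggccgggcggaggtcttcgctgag
SEC24A (chr5:134648535-134648834, plus strand): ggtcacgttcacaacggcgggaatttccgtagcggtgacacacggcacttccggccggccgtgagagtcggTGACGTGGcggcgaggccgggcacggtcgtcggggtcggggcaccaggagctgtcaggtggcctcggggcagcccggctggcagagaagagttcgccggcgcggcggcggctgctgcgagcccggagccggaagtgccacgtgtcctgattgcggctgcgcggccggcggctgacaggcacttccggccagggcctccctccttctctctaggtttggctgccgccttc

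The window of the second SEC23B start holds CCAAT on both strands, beginning 97 and 52 bases before the start. The window of the first SEC23B start holds none. The SAR1B window holds it on the minus strand of the window, 95 bases before. The other window with CCAAT is that of the first SEC31A start, at 60 and 30 bases before. SEC31A did not pass (difference -0.05, limma adjusted p = 0.781). CCAAT was found in 3 of 14 member windows (21.4%) and in 34.6% of all 35116 windows. TGACGTGG begins 4 bases before the start of SEC23A and 179 bases before that of SEC24A. It was found in 2 of 14 member windows (14.3%) and in 0.729% of all windows. The other motifs matched 0 of the member windows, and 1.85% (TGACGTCA), 0.077% and 0.054% of all windows. Of the genes with the XBP1 core, SEC23A differed by -0.18 and SEC24A by 0.11, and neither passed. A match is a description of letters and not of binding. SAR1B and SEC24A are neighbours on chromosome 5, read in opposite directions, with 1 annotated gene between them (the small pseudogene RNU6-1311P). SAR1B differed by -0.31. The 0.11 of SEC24A did not pass and was 0.01 without negative control 3, so no opposite change is shown.

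Other genes of the ER exit route were taken in 6 lists by role. Of 10 measured factors that organise coat assembly, 1 rose, none fell and 9 did not pass. Over all genes, 2.48% were called higher and 1.74% lower. MIA3, which encodes the ER exit site protein TANGO1 that helps load collagen, lay at 8.49, 8.67 and 8.30 in controls and at 9.03, 9.02 and 9.05 with miR-130a. The treated arrays were level and stood 0.34 above the highest control, and MIA3 was 1.46-fold higher (difference 0.54, SE 0.09, adjusted p = 0.0180). The call was lost on leaving out negative control 1 or any array of the miR-130a arm (adjusted p = 0.0725 to 0.0938), on centring by medians (0.0510) and when all rows were tested (0.0754). Its partner MIA2, named after its value was seen, differed by 0.40 (adjusted p = 0.0862), by 0.29 without negative control 3 (adjusted p = 0.0487) and by 0.22 as the mean of its 2 rows (adjusted p = 0.162). It also passed with the filter on dim rows (adjusted p = 0.0488), and missed the threshold in the other 11 alternatives. The list's median difference was -0.02.

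Of 7 transcription factors known to drive COPII genes, and the proteases that activate some of them, XBP1 rose and 6 did not pass. This 1 call stands beside 2.48% of all genes called higher, and the list's median difference was 0.03. XBP1 lay at 8.22, 8.29 and 8.30 in controls and at 8.69, 8.58 and 8.71 with miR-130a. Every treated value was above every control, and the difference of 0.39 (SE 0.06) was 1.31-fold (adjusted p = 0.0102). It missed the threshold on leaving out array 1 (adjusted p = 0.0741) or 3 (0.0706) of the miR-130a arm and when all rows were tested (0.0594). An array row of this kind does not show the splicing that activates XBP1. CREB3L2, a factor that in fish and mice drives coat genes in cartilage and was named after its value was seen, differed by -0.25 (adjusted p = 0.0542). It passed in 4 of 13 alternatives: a second quantile normalization (adjusted p = 0.0264), the filter on dim rows (0.0282), the trend and robust options (0.0220), and without negative control 3 (0.0132, difference -0.30).

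In the other 4 lists, 0 genes passed the test on all 6 arrays. Their counts at an unadjusted p below 0.05 stand beside 16.5% of all genes, 8.34% lower. Of 22 cargo receptors, 8 had an unadjusted p below 0.05, 6 of them lower, and the median difference was -0.06. CNIH1 differed by -0.16 and LMAN2L by 0.15 (adjusted p = 0.166 and 0.168). The next list holds 11 SNAREs, tethers and proteins that work with them after budding, among them SCFD1 and the GTPases RAB1A and RAB1B. Of these, 3 had an unadjusted p below 0.05, and the median was -0.06. SCFD1 differed by 0.25 and RAB1A by -0.15 (adjusted p = 0.168 and 0.184). The 10 measured genes of the COPI list encode the coat of the return route from the Golgi and the GTPase ARF4. All 10 had a lower mean with miR-130a, as had 56.8% of all genes. Of the 10, 3 had an unadjusted p below 0.05, and the median was -0.10. COPA, at -0.0023, turned to 0.0191 on median centring, and 8 to 10 of the 10 were lower over the 13 alternatives. COPB2 differed by -0.16 and COPG1 by -0.14 (adjusted p = 0.158 and 0.211). Of 6 cargoes known to need COPII, 0 had an unadjusted p below 0.05. F8 differed by -0.08 and ATF6, which is also in the list of factors, by 0.08 (adjusted p = 0.521 and 0.684). The rows of F8 and of another cargo, F5, lay below the median row (4.995) on every array, so they say little.

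Without negative control 3, calls over all genes went from 4.23% to 10.0% (5.14% lower), and more genes of these lists passed too. COPB2 and COPG2 were lower by -0.19 and -0.24 (adjusted p = 0.0350 and 0.0226), RAB1A and SEC22C by -0.18 and -0.16 (0.0338 and 0.0468), and the cargo receptor LMAN1 by -0.20 (0.0303). These genes were picked out after their values were seen.

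**Figure D4:**
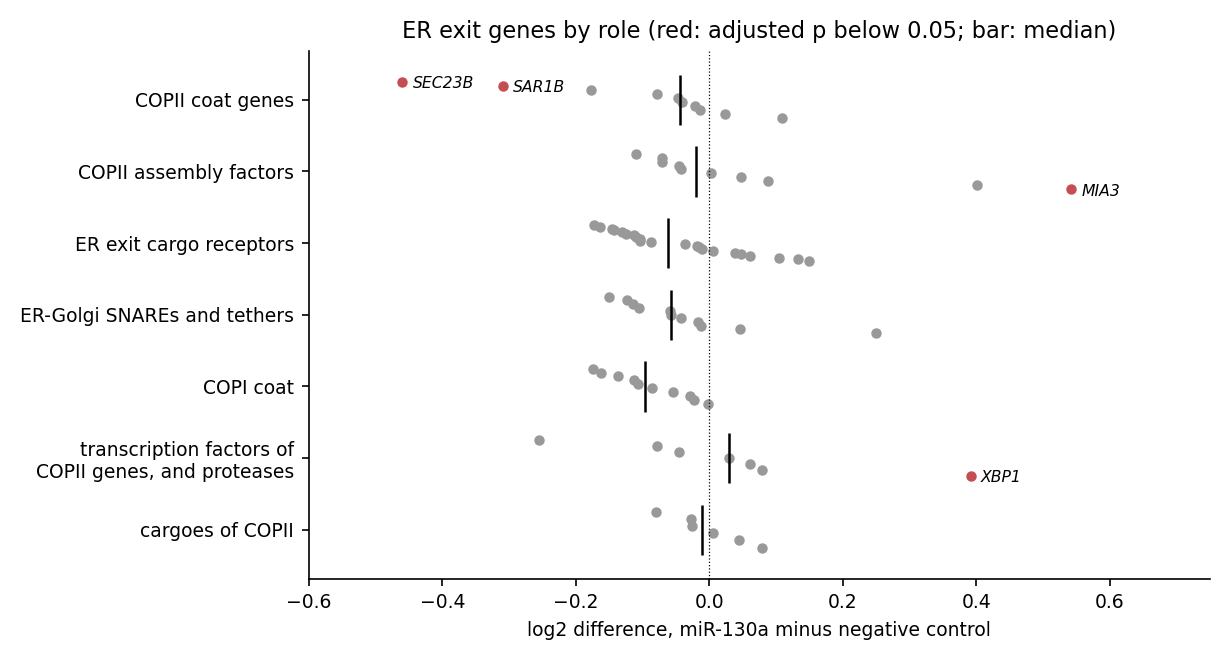
Log2 difference between miR-130a and negative control arrays (horizontal axis) for every measured gene of the COPII coat and of 6 related lists, with a bar at the median of each list; red points passed the adjusted threshold and grey points did not. SEC23B and SAR1B lie to the left and MIA3 (0.54) and XBP1 (0.39) to the right.

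**Figure D5:**
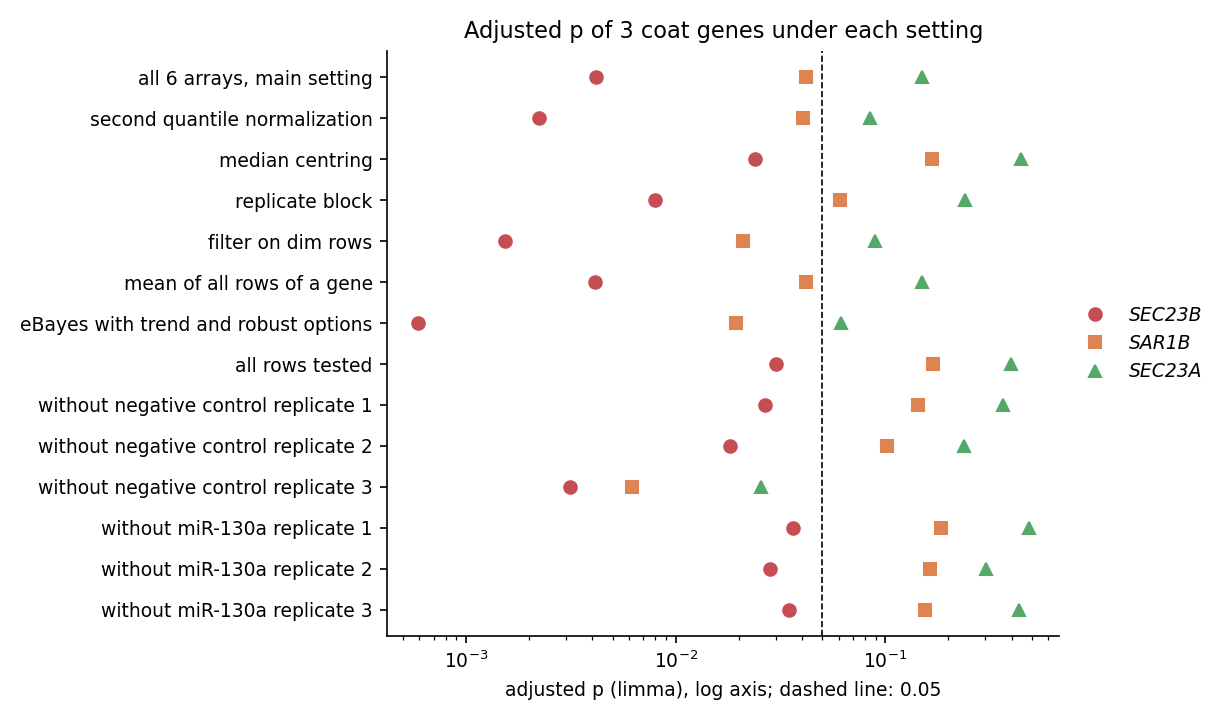
Adjusted p (limma, log axis) of SEC23B, SAR1B and SEC23A with all 6 arrays and under 13 alternatives; the dashed line is 0.05. SEC23B stays below 0.05 throughout, at most 0.0364, SAR1B passes in 5 alternatives, and SEC23A passes only without negative control 3 (0.0254).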

How the data were processed

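Total RNA of 6 PC3 cultures was measured on Affymetrix arrays, 3 per arm. Per the submitters' processing notes, the authors made the deposited log2 values with RMA in Affymetrix Expression Console. No versions or genome build are given there. The log2 scale was taken from the range of the values. Rows with exactly 1 symbol were kept (23781), names came from RefSeq's table by Entrez identifier (21497 matched), and the row with the highest mean stood for a gene, which left 22465 genes. The test was limma's moderated one (lmFit and eBayes, limma 3.58.1 in R 4.3.3), two-sided, with Benjamini-Hochberg adjustment over all 22465 genes and a threshold of 0.05. Intervals are limma's, unadjusted. The script was tested on simulated data. Pairs were tested by exact permutation (scipy 1.17.1). Depth has no counterpart on arrays: their number limits precision. The coat genes, the lists and the named genes (10 members; up to 4 called genes of a list, otherwise the 2 with the smallest p; the 5 genes most like SEC23B) were chosen with earlier results of these data known. PDCD6, LMAN1L, TMED7, SEC22B, USO1 and ARF1 had no row of their own and were not analysed here. Scan dates were not used here, and no batch labels were given. Alternatives were a second quantile normalization, median centring, the replicate number as a block, a filter on rows at or below 4.995, the mean of a gene's rows, trend and robust options, all 67528 rows, and leaving out each array. The p-values measure the spread between these cultures.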

Additional observations from a re-analysis of the deposited data

How the results depend on the processing

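On all 6 arrays 2 coat genes were called. The count was 1, SEC23B alone, with median centring, with the replicate block and when all rows were tested, and it ranged from 1 to 3 when 1 array was left out: 1 without any array other than negative control 3, and 3 without negative control 3. With the replicate block SAR1B missed the threshold (adjusted p = 0.0608, difference -0.31). The labels do not say whether a number marks a shared experiment. Same-numbered arrays' deviations from their group means correlated at -0.0346, -0.0108 and 0.0382, and those of differently numbered arrays at -0.0621 to 0.0936. With 3 arrays per arm such correlations cannot show whether the arrays were paired. SEC23B kept its call in 13 of 13 alternatives. Each coat gene has 1 row, so the mean of a gene's rows could not move any of their differences. The replicate block, the filter on dim rows, the trend and robust options and testing all rows could not move them either. Those settings act on the spread or the adjustment. Differences that changed sign were those of 3 uncalled genes: SEC24B reached 0.0001 and SEC24D 0.007 with median centring, and with 1 array left out SEC24B ranged from -0.0977 to 0.0274, SEC24D from -0.0394 to 0.0025 and SAR1A from -0.0225 to 0.0593. All 4 paralog shifts kept their sign in the alternatives run. With 3 arrays per arm, small changes can be missed, and the cause of negative control 3's distance was not tested.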
